A study of Homo sapiens with 14 samples.

Results

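K562 cells whose dCas9 was directed to the β-globin locus control region (sgHS1-5) were compared with K562 cells carrying a non-targeting sgRNA (sgGal4). The comparison took every library that the labels assign to these 2 groups, 3 of sgHS1-5 and 3 of sgGal4, or 6 of the 14 RNA-seq libraries in the series. K562 cells derive from a patient's chronic myeloid leukemia and show traits of red cell and platelet precursors, and all libraries came from K562 grown in IMDM with serum. Cells of both groups carried FB-dCas9-BirA, a catalytically inactive Cas9 with a Flag and biotin-acceptor tag, together with the biotin ligase BirA, and by their labels they differed in their sgRNAs. The sgHS2 and sgHBG cells (3 libraries each), which carry the same FB-dCas9-BirA, and WT cells (2 libraries) were used to see whether a difference also set sgHS1-5 apart from populations other than sgGal4. The labels do not say whether libraries came from separate cultures, so the tests weigh differences against library-to-library scatter only. That scatter may be technical. The sgRNA groups are separate cell populations, so an effect of the sgRNAs and other differences between populations cannot be told apart.

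The locus control region is a cluster of DNase-hypersensitive sites upstream of the embryonic globin gene HBE1, and it acts as the distal enhancer of the β-like globin genes in red cell precursors. The fetal genes HBG2 and HBG1, the minor adult gene HBD and the adult gene HBB follow in that order along the chromosome. The α-like genes, among them the embryonic HBZ, lie in a separate cluster on another chromosome. K562 cells are known to transcribe embryonic and fetal globin genes and little or no HBB.

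The sgHS1-5 libraries held 5694448, 6773888 and 6722849 counted reads and the sgGal4 libraries 9498578, 10782074 and 11335831. Levels are given as CPM, reads scaled for library size and composition. With 0 reads, levels up to 0.405 to 0.486 CPM in sgHS1-5 and up to 0.275 to 0.425 CPM in sgGal4 remained possible (3 reads per library, counting error only). In each group 1 library stood apart. Pairs of replicates were set against sampling noise by χ² per degree of freedom, where 1 means no further difference. It was 3.01 between sgHS1-5 1 and 3 and 17.1 and 11.2 for sgHS1-5 2 against them. The value was 1.46 between sgGal4 2 and 3 and 84.1 and 87.6 for sgGal4 1 against them. Libraries sgHS1-5 2 and 3 also held transcripts of other blood cells. Results are therefore given with all 3 sgHS1-5 libraries and, where it bears on them, for sgHS1-5 1 alone. The fit of sgHS1-5 1 alone has no sgHS1-5 replicate and assumes that this library varies like those of the other groups. A gene was called at a Benjamini-Hochberg adjusted p under 0.05 in edgeR's quasi-likelihood test over all 14406 genes tested, and every adjusted p in the text is of that test.

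Of these genes, 2920 (20.3%) were called higher and 2903 (20.2%) lower in sgHS1-5 than in sgGal4, 40.4% in all. A count within a list of genes is to be read against these shares. The median log2 difference over all genes was 0.02. These tests estimate the spread of a gene over all 14 libraries together. Fitted on the 6 libraries of sgHS1-5 and sgGal4 by themselves, 2203 genes were called in place of 5823. In sgHS1-5 1 alone, 1216 of 14368 genes (8.46%) were called higher and 1259 (8.76%) lower. With sgGal4 1 also left out, sgHS1-5 1 alone gave 2265 of 14352 genes (15.8%) higher and 2446 (17.0%) lower, 32.8% in all. Genes called in the same direction with all libraries and in sgHS1-5 1 alone numbered 2280 (15.8%), 1152 higher (8.0%) and 1128 lower (7.83%), and a gene is said below to have been called in both fits on that basis. Against the mean of sgHS2 and sgHBG, 2863 genes (19.9%) were higher and 2530 (17.6%) lower, 37.4% in all. Against WT 3378 (23.4%) were higher and 2804 (19.5%) lower, 42.9% in all. Without sgGal4 1, 46.0% of genes were called against sgGal4. The libraries of sgHS1-5 and sgGal4 did not overlap in 45.5% of genes, and 36.8% were called and did not overlap. Genes called and at least 2-fold apart were 1562 higher (10.8%) and 871 lower (6.05%). All 3 comparisons share the sgHS1-5 libraries.

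The β-globin cluster lies next to the targeted elements. In sgHS1-5 the fetal genes stood high relative to the embryonic gene, and of the 5 genes tested 2 rose and 0 fell. HBE1, the embryonic gene nearest to the locus control region, had 289, 187 and 277 CPM in sgHS1-5 against 544, 240.2 and 239 CPM in sgGal4. The groups overlapped, sgGal4 1 being the highest library, and HBE1 was not called (log2 −0.44 ± 0.28, adjusted p = 0.221; ± gives the standard error). HBG2, a fetal gene, had 279, 174 and 229.7 CPM in sgHS1-5 against 166, 58.0 and 60.4 CPM in sgGal4. All sgHS1-5 libraries lay above all sgGal4 libraries. The log2 difference was 1.27 ± 0.33 (2.41-fold, adjusted p = 0.00929) with all libraries and 1.57 in sgHS1-5 1 alone (adjusted p = 0.0347). Fitted on the 6 libraries by themselves, HBG2 was not called (log2 1.29, adjusted p = 0.0782). The adjacent fetal gene HBG1, almost the same in sequence, had 154, 102 and 146 CPM in sgHS1-5 against 130, 47.1 and 46.5 CPM in sgGal4. Here sgGal4 1 lay within the sgHS1-5 range, and the difference missed the threshold (log2 0.85 ± 0.33, adjusted p = 0.0546). The HBG genes are so alike that the split of reads between them is uncertain.

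Library sgGal4 1 weighed on these values. Without it the log2 difference was 1.94 for HBG2 (adjusted p = 3.58e-06), 1.51 for HBG1 (adjusted p = 3.04e-05) and 0.07 for HBE1 (adjusted p = 0.757). The ratio of fetal to embryonic transcripts is taken within a library. It was chosen after its values were seen and carries no test. In the authors' RPKM values, which are scaled to transcript length, HBG1 and HBG2 together came to 2.65, 2.60 and 2.55 times HBE1 in the sgHS1-5 libraries, against 0.98, 0.76 and 0.77 times in the sgGal4 libraries. The ratio was 1.07 to 1.11 in sgHS2, 0.94 to 0.97 in sgHBG and 1.05 to 1.09 in WT. The 3 sgHS1-5 libraries thus lay close together and above the other 11, with no overlap. By level alone sgHS2 matched sgHS1-5 in the fetal genes. HBG2 averaged 557 RPKM in sgHS1-5, 631 in sgHS2, 199.8 in sgHBG and 335 in WT. HBG1 averaged 326, 333, 141 and 164 RPKM in the same order. HBE1 averaged 339 RPKM in sgHS1-5 and 884 in sgHS2.

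The remaining β-like genes were weakly transcribed. HBBP1, the globin pseudogene between HBG1 and HBD, had 3.40, 2.87 and 4.32 CPM in sgHS1-5 against 1.28, 1.26 and 1.19 CPM in sgGal4, without overlap (log2 1.5 ± 0.29, adjusted p = 0.00146). In RPKM its mean was 8.14 in sgHS1-5, 5.85 in sgHS2 and 13.1 in sgHBG. HBD had 3.56, 2.59 and 2.84 CPM in sgHS1-5 against 5.67, 3.77 and 3.21 CPM in sgGal4 and was not called (log2 −0.48 ± 0.24, adjusted p = 0.127). HBB had 0 reads in every library of both groups. Set against the mean of sgHS2 and sgHBG, sgHS1-5 was lower in HBE1 (log2 −0.79 ± 0.25, adjusted p = 0.0229) and HBD (log2 −1.06 ± 0.21, adjusted p = 0.00161), and the other tested genes of the cluster were not called. HBE1 averaged 251 CPM in sgHS1-5, against 692 CPM in sgHS2 and 273 CPM in sgHBG, so the low value lay mainly against sgHS2. The calls of HBE1 and HBD against the mean of sgHS2 and sgHBG rest on the fit with all 3 sgHS1-5 libraries and not on sgHS1-5 1 alone.

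**Figure D1:**
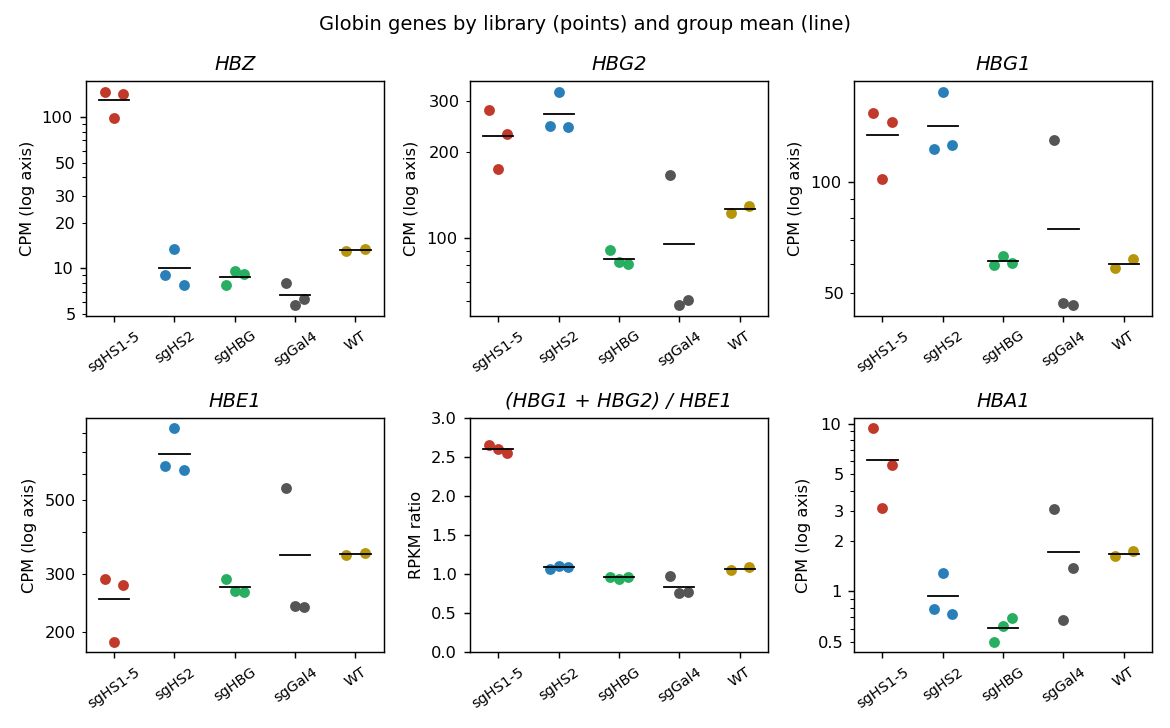
Levels of HBZ, HBG2, HBG1, HBE1 and HBA1 in CPM on log axes, and the ratio of HBG1 plus HBG2 to HBE1 in RPKM on a linear axis, with a point for each library and a line for the mean of each group. The sgHS1-5 libraries lie above all other libraries in HBZ (99.2 to 147 CPM) and in the ratio (2.55 to 2.65), while HBE1 overlaps between sgHS1-5 and sgGal4.

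The α-globin cluster, which the sgRNAs do not target by their names, held the globin gene with the largest difference. HBZ, the embryonic α-like gene, had 147, 99.2 and 143 CPM in sgHS1-5 against 7.94, 5.71 and 6.23 CPM in sgGal4. Its log2 difference was 4.30 ± 0.23 (19.7-fold, adjusted p = 1.01e-07) with all libraries and 4.49 in sgHS1-5 1 alone (adjusted p = 4.42e-06), and it ranged from 4.03 to 4.62 over all settings tried. HBZ was also higher than the mean of sgHS2 and sgHBG (log2 3.78 ± 0.17, adjusted p = 4.66e-08) and than WT (log2 3.30 ± 0.25, adjusted p = 6.79e-07). Per length, HBZ stood at 0.962, 1.04 and 1.04 times HBE1 in RPKM in the sgHS1-5 libraries, against 0.0438, 0.0466 and 0.0487 times in the sgGal4 libraries. The embryonic α-like and β-like transcripts were thus at nearly equal RPKM in sgHS1-5.

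HBA1 and HBA2, the adult α-globin genes, are near-identical copies whose reads cannot be assigned with certainty. HBA1 had 9.39, 3.14 and 5.67 CPM in sgHS1-5 against 3.12, 0.677 and 1.38 CPM in sgGal4, groups that lay apart by a narrow gap (log2 1.86 ± 0.48, adjusted p = 0.009). HBA2 had 3.88, 1.64 and 1.22 CPM in sgHS1-5 against 1.13, 0.677 and 0.183 CPM in sgGal4 (log2 1.80 ± 0.60, adjusted p = 0.0293). Both were uneven over the sgHS1-5 libraries, with sgHS1-5 1 the highest. The call of HBA2 was lost without sgHS1-5 1 (log2 1.19, adjusted p = 0.126), without sgGal4 2 (log2 1.86, adjusted p = 0.0615) and without sgGal4 3 (log2 1.31, adjusted p = 0.0913). Fitted on the 6 libraries by themselves, neither was called (adjusted p = 0.0712 for HBA1 and 0.101 for HBA2), with log2 differences of 1.88 and 1.82. NPRL3, whose introns hold the distal enhancer of the α-globin genes, had 76.7, 64.1 and 79.8 CPM in sgHS1-5 against 58.3, 60.2 and 57.7 CPM in sgGal4 (log2 0.33 ± 0.11, adjusted p = 0.0318), and it was not called in sgHS1-5 1 alone (adjusted p = 0.0872). Leaving out sgHS1-5 3, sgGal4 2 or sgGal4 3 also ended its call (adjusted p = 0.118, 0.0526 and 0.0719), as did leaving out sgHS1-5 1 (adjusted p = 0.0863) or blocking on the replicate number (adjusted p = 0.0527).

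The other 6 tested genes of the α-globin region, HBQ1, LUC7L, MPG, RHBDF1, POLR3K and SNRNP25, were not called, with log2 differences from −0.55 (MPG) to 0.39 (LUC7L). In HBQ1, LUC7L, MPG, POLR3K and SNRNP25 the highest sgGal4 library was sgGal4 1. Without it 7 of 10 genes of the region rose and 0 fell, among them LUC7L, a splicing factor gene (log2 0.96, adjusted p = 0.000128), and SNRNP25, a minor spliceosome gene (log2 0.79, adjusted p = 0.000101).

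With all 3 sgHS1-5 libraries, non-olfactory genes flanking the β-globin cluster more often fell than rose. Of 24 tested, 2 rose and 8 fell (median log2 −0.11), and of 6 tested olfactory receptor genes 1 rose and 0 fell. The share of non-olfactory genes called lower in both fits was near that over all genes. TRIM6, a ubiquitin ligase gene, had 22.2, 15.1 and 17.0 CPM in sgHS1-5 against 48.8, 52.3 and 49.3 CPM in sgGal4 (log2 −1.47 ± 0.14, adjusted p = 1.12e-05). SMPD1, which encodes the lysosomal acid sphingomyelinase, had 11.7, 12.6 and 14.5 CPM in sgHS1-5 against 46.4, 31.5 and 28.1 CPM in sgGal4 and was 2.72-fold lower (adjusted p = 6.91e-05). These were the 2 non-olfactory falls called in both fits. STIM1, the calcium sensor of the endoplasmic reticulum (ER), was 1.35-fold lower (adjusted p = 0.0139) and was not called in sgHS1-5 1 alone (adjusted p = 0.112).

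Among the erythroid transcription regulators, 13 of 32 rose and 0 fell (median log2 0.38). Of these rises 4 were called in both fits, and 3 were uneven. LDB1, the looping cofactor that joins the locus control region to globin promoters, had 151, 122 and 142 CPM in sgHS1-5 against 48.2, 81.2 and 82.8 CPM in sgGal4, without overlap (log2 0.96 ± 0.17, adjusted p = 0.000833; 1.09 in sgHS1-5 1 alone). ZFPM1, the GATA1 cofactor FOG1, had 46.6, 27.8 and 41.3 CPM in sgHS1-5 against 17.0, 17.5 and 16.1 CPM in sgGal4 and was 2.28-fold higher (adjusted p = 0.000282). GATA1, the erythroid master regulator, had 216, 133 and 190.5 CPM in sgHS1-5 against 260.3, 151 and 148 CPM in sgGal4, groups that overlapped (log2 −0.05 ± 0.22, adjusted p = 0.862). KLF1, the activator of adult globin, was not called (log2 0.40 ± 0.23, adjusted p = 0.177). BCL11A, the fetal globin repressor, had 0, 9.83 and 2.30 CPM in sgHS1-5 and 0 reads in every sgGal4 library. BCL11A is counted among the 13, but it passed the filter on low counts only through sgHS1-5 2 and 3, so no test is given. It had 0 reads in sgHS1-5 1 and was highest in sgHS1-5 2, and its source was not tested.

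Erythroid membrane and surface genes went both ways, with 12 of 31 higher and 5 lower (median log2 0.30), 8 and 1 of them called in both fits. Against the mean of sgHS2 and sgHBG 8 were higher and 9 lower (median 0.04), and against WT 6 were higher and 14 lower (median −0.48). RHD, the RhD blood group antigen, had 29.3, 19.7 and 28.2 CPM in sgHS1-5 against 4.39, 4.93 and 4.31 CPM in sgGal4 (log2 2.49 ± 0.18, adjusted p = 1.22e-06). In the heme and iron list 7 of 25 rose and 5 fell (median log2 −0.13). SLC25A37, the mitochondrial iron importer mitoferrin, was 2.53-fold higher (adjusted p = 6.44e-06) and CPOX, a heme synthesis enzyme, 2.03-fold higher (adjusted p = 9.36e-06). ABCG2, of the same list, went the other way, with 10, 7 and 15 reads in sgHS1-5 against 81, 145 and 162 reads in sgGal4. Of 16 tested megakaryocyte genes 7 rose and 0 fell (median log2 0.85). The median in sgHS1-5 1 alone was 0.49 over the genes tested there. Against the mean of sgHS2 and sgHBG 3 megakaryocyte genes were higher and 3 lower (median 0.27). Against WT 10 were higher and 0 lower (median 1.39). ITGA2B, the platelet integrin αIIb, had 122, 80.2 and 117 CPM in sgHS1-5 against 63.4, 48.4 and 48.1 CPM in sgGal4 (log2 1.0 ± 0.16, adjusted p = 0.000439), while its mean in sgHBG was higher, at 231 CPM. In bulk RNA, more cells of a type and more RNA per cell cannot be told apart.

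The genes with the highest log2 differences from sgGal4 were unevenly present in sgHS1-5. Uneven means that the highest sgHS1-5 library exceeded 2 times the lowest, or that the lowest was at 0, a division made after the data were seen. Under the naming rule, which asked for a call in both fits, no overlap and a mean of at least 1 CPM, the 12 highest were CXCR4, MPO, IL1RN, BASP1, MS4A1, GPX1, IRF8, EMP1, LSP1, S100A6, TNS3 and DUSP2, and all 12 were uneven. MPO, the myeloperoxidase of neutrophil granules, had 19.4, 1414 and 264 CPM in sgHS1-5 against 0.284, 0.0967 and 0.275 CPM in sgGal4. CXCR4, a chemokine receptor of leukocytes, had 2.59, 83.4 and 18.8 CPM in sgHS1-5 and 0 reads in sgGal4, at least 346-fold higher with 3 reads over the sgGal4 group as the floor. MS4A1, the B cell antigen CD20, had 2.43, 38.9 and 9.59 CPM in sgHS1-5 and 0 reads in sgGal4, at least 167-fold higher. MPO, CXCR4 and MS4A1 passed the filter on low counts only through the sgHS1-5 libraries, so their values are descriptions and no test is given. In each of the 12 genes sgHS1-5 2 was the highest library and sgHS1-5 1 stood at 1.37% to 11.9% of it. A call in sgHS1-5 1 alone therefore did not separate these genes from those of other blood cells.

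A set of 48 genes had at least 20 reads in sgHS1-5 2 and 0 reads in the 11 libraries of the other groups. The rule chose them for their reads in sgHS1-5 2, so their high level there is no result. All 48 had reads in sgHS1-5 3 and 36 had reads in sgHS1-5 1. Their levels summed to 15.5, 444 and 111 CPM in sgHS1-5 1, 2 and 3. K562 cells are known to lack the 9p21 region around CDKN2A. Of 12 counted genes of that region 4 passed the filter on low counts, which they did through sgHS1-5 2 and 3, and none passed it with those libraries left out, so they are given by their reads with no test. These were the cell cycle inhibitors CDKN2A and CDKN2B, MTAP, a methionine salvage enzyme, and KLHL9, a ubiquitin ligase adaptor. CDKN2A had 1, 41 and 11 reads in sgHS1-5 and 0, 0 and 0 in sgGal4. MTAP had 6, 129 and 25 reads in sgHS1-5 and 0, 0 and 0 in sgGal4. KLHL9 had 4, 79 and 19 reads in sgHS1-5 and 0, 0 and 0 in sgGal4. All 4 were highest in sgHS1-5 2. CDKN2B-AS1, the antisense RNA of the region, had reads in every library of the series, 5, 13 and 3 in sgHS1-5, 6, 3 and 7 in sgHS2, 8, 7 and 5 in sgHBG, 1, 5 and 3 in sgGal4 and 6 and 6 in WT. The strand setting of the counting is not given in the sources used here, so its reads and those of CDKN2B cannot be told apart where the genes overlap.

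Members of the lists of other blood lineages were also high in these libraries. Some passed the filter on low counts only through the libraries where they are high, so the counts that follow are descriptions. Of 16 tested neutrophil genes 14 rose and 0 fell, all 14 of them uneven. The list of 25 summed to 68.3, 2008 and 409 CPM in sgHS1-5 against 55.7, 40.5 and 43.4 CPM in sgGal4, and 4 of the 25 were at 0 reads in all sgHS1-5 libraries. Of 21 tested B cell genes 17 rose (14 of them uneven), and of 17 T and NK cell genes 11 rose and 1 fell (8 of the rises uneven). Of 17 monocyte genes 10 rose and 2 fell (7 of the rises uneven). Of 7 MHC class II genes 6 rose (5 uneven), and this list summed to 20.4, 304 and 65.7 CPM in sgHS1-5 against 6.95, 5.22 and 5.59 CPM in sgGal4. In sgHS1-5 1 alone 3 of 11 tested neutrophil genes were called higher and 1 lower (median log2 0.98, against 3.98 with all libraries). The median of the monocyte genes turned direction there, over fewer tested genes, with 4 of 13 higher, 4 lower and a median of −0.50, against 2.04 with all libraries. B cell genes gave 7 of 17 higher and 0 lower (median 1.54), T and NK cell genes 5 of 16 and 0 (median 1.44), and MHC class II genes 3 of 6 and 0 (median 1.85). The part of these transcripts in other results was not tested beyond the values for sgHS1-5 1 alone.

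In sgHS1-5 1 alone, 195 genes were called that were not called in the same direction with all 3 libraries. Most of these were lower, and most of the lower genes were uneven. The genes were picked because sgHS1-5 1 alone and the fit with all 3 libraries disagreed, which favours uneven genes. Their unevenness is therefore no result. VLDLR, a lipoprotein receptor gene of the amino acid stress list, had 0.809, 19.9 and 4.59 CPM in sgHS1-5 against 2.98, 4.55 and 5.5 CPM in sgGal4. It lay below sgGal4 in sgHS1-5 1 and far above it in sgHS1-5 2. Its log2 difference was 0.95 with all libraries (adjusted p = 0.269) and −2.43 in sgHS1-5 1 alone (adjusted p = 0.0169).

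**Figure D2:**
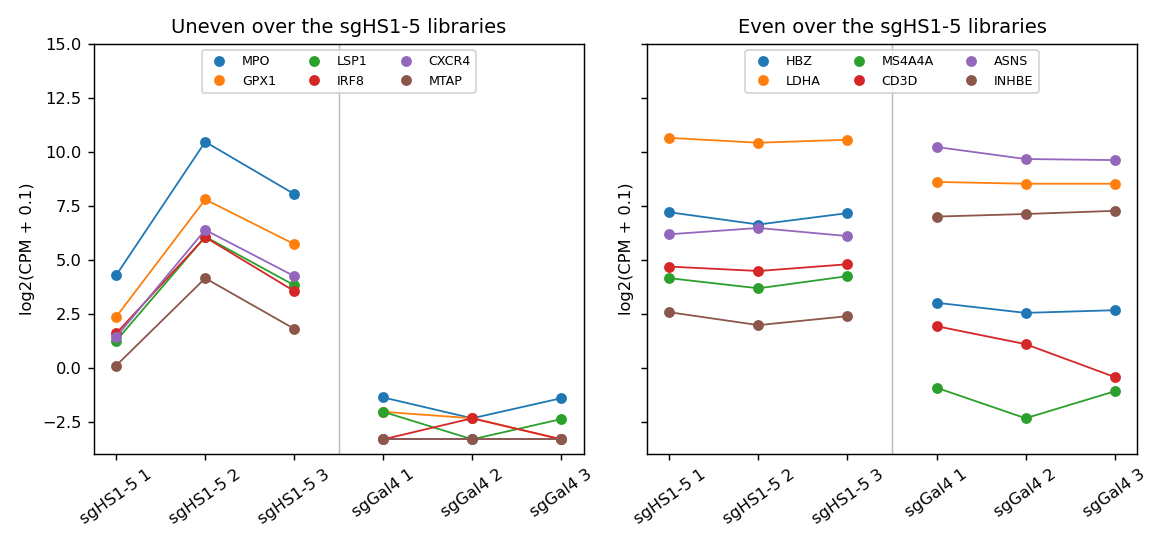
Levels of 6 uneven genes (left) and 6 even genes (right) in each sgHS1-5 and sgGal4 library as log2(CPM + 0.1), with lines joining the libraries of a group. The uneven genes peak in sgHS1-5 2, where MPO reached 1414 CPM, while the even genes lie level over the sgHS1-5 libraries, as ASNS does at 68.4 to 88.8 CPM.

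The even genes numbered 11993, of which 4694 (39.1%) were called, 2039 higher and 2655 lower. Of the 2413 uneven genes 1129 (46.8%) were called, 881 higher and 248 lower (10.3%). Among even genes that met the naming rule, the 12 highest had log2 differences of 3.87 to 5.79. MS4A4A, a tetraspan surface protein of monocytes and mast cells, had 17.6, 12.7 and 18.8 CPM in sgHS1-5 against 0.425, 0.0967 and 0.367 CPM in sgGal4 (log2 5.79 ± 0.32, adjusted p = 1.47e-07). Its relative MS4A6A had 26.4, 36.2 and 28.9 CPM in sgHS1-5 against 0.567, 0.774 and 1.01 CPM in sgGal4 (log2 5.22 ± 0.20, adjusted p = 1.11e-08). These genes were also transcribed in sgHBG, at means of 14.7 CPM for MS4A4A and 38.9 CPM for MS4A6A.

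LINC00861, a long non-coding RNA gene, had 761, 531 and 696 CPM in sgHS1-5 against 8.22, 36.1 and 46.2 CPM in sgGal4 (log2 4.44 ± 0.57, adjusted p = 0.000101), the highest level among the 12. CD3D, a chain of the T cell receptor complex, was named from the T cell list and was even, with 25.6, 22.2 and 27.6 CPM in sgHS1-5 against 3.69, 2.03 and 0.642 CPM in sgGal4 (log2 3.65 ± 0.37, adjusted p = 1.72e-05). ZNF300, a zinc finger gene, was 25.1-fold and F8, coagulation factor VIII, 18.4-fold higher than in sgGal4 (adjusted p = 2.24e-07 and 4.14e-06). Neither was called against the mean of sgHS2 and sgHBG (log2 0.17 and 0.31, adjusted p = 0.419 and 0.282), and both were lower than in WT (log2 −0.83 and −1.42). PAK6, a p21-activated kinase, had 8.25, 6.96 and 6.89 CPM in sgHS1-5 against 0.425, 0.29 and 0.733 CPM in sgGal4, and was also higher than the mean of sgHS2 and sgHBG (log2 2.47) and than WT (log2 3.94). The others of the 12 were HTRA3, SAMD9, HBZ, MAGEB17, PRKCH and FLT1.

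The 12 lowest even genes had log2 differences of −4.85 to −2.86. CPZ, a carboxypeptidase, had 2.27, 1.64 and 2.43 CPM in sgHS1-5 against 63.2, 60.3 and 60.4 CPM in sgGal4 (log2 −4.85 ± 0.17, adjusted p = 3.39e-09), and averaged 26.2 CPM in sgHS2, 12.7 CPM in sgHBG and 40.2 CPM in WT. INHBE, the inhibin βE subunit, had 5.83, 3.82 and 5.13 CPM in sgHS1-5 against 128, 139 and 154 CPM in sgGal4 (log2 −4.84 ± 0.14, adjusted p = 1e-09). IL20RB, a cytokine receptor chain, had 3.72, 2.73 and 4.19 CPM in sgHS1-5 against 71.4, 50.7 and 52.0 CPM in sgGal4 (log2 −4.03 ± 0.18, adjusted p = 4.34e-08). CPZ, INHBE and IL20RB were also lower than the mean of sgHS2 and sgHBG (log2 −3.11, −4.58 and −4.02) and than WT (log2 −4.25, −4.96 and −4.98). Next came NUPR1, a stress-induced chromatin protein, ASNS, STXBP6, COL15A1, PRSS8, FERMT2, PLA2G3, LINC00624 and SLC6A9. In sgHS1-5 PLA2G3 had only 3, 3 and 2 reads and LINC00624 3, 2 and 2 reads. The evenness and size of the difference are therefore loosely set for PLA2G3 and LINC00624.

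Without the condition on evenness the lowest was CLCA1, a chloride channel regulator. It had 0 reads in sgHS1-5 against 24, 44 and 70 reads in sgGal4, at least 34.0-fold lower. CLCA1 passed the filter on low counts only through the sgGal4 libraries, so no test is given. TWIST1, a transcription factor of mesenchymal cells, had 0.486, 1.09 and 0.675 CPM in sgHS1-5 against 19.4, 21.9 and 20.5 CPM in sgGal4 (log2 −4.73 ± 0.29, adjusted p = 3.48e-07). CLCA1 was also at 0 reads in sgHS2 and WT, and TWIST1 averaged 1.22 CPM in sgHS2, 1.38 CPM in sgHBG and 0.278 CPM in WT. In these 2 genes sgGal4 was the group that lay above the rest.

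**Figure D3:**
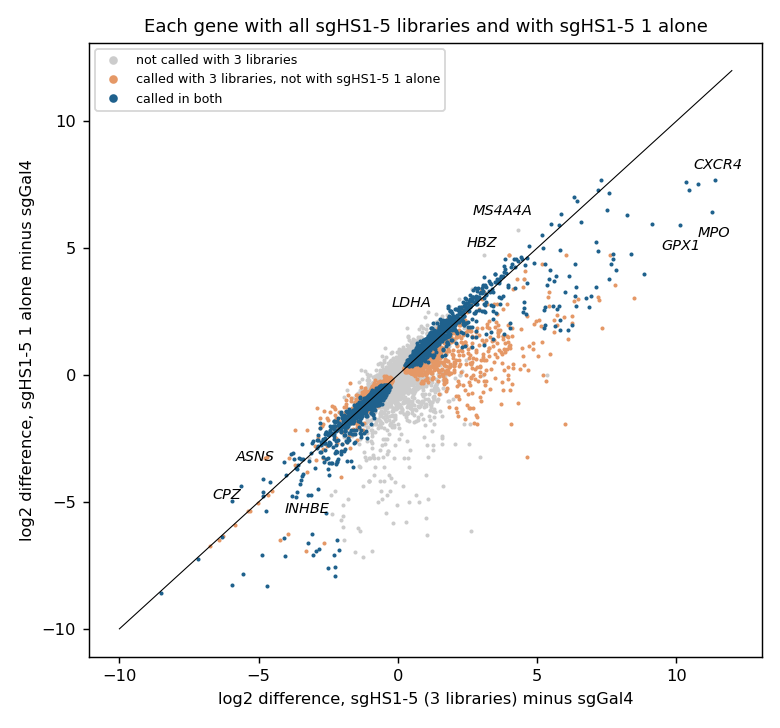
Log2 difference from sgGal4 of each of 14083 genes, with all 3 sgHS1-5 libraries on the x axis and with sgHS1-5 1 alone on the y axis, coloured by call, with the line of equal values. ASNS, LDHA and HBZ lie near the line (HBZ at 4.30 and 4.49), while MPO, GPX1 and CXCR4 lie well below it (MPO at 6.44 in sgHS1-5 1 alone).

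Genes of the amino acid stress response were low together in sgHS1-5. ATF4 is the transcription factor made when amino acids run short or unfolded proteins collect, and it switches on transporters and enzymes of amino acid synthesis. Of 25 genes in the ATF4 and amino acid stress list 0 rose and 22 fell (median log2 −1.28). Of these falls 20 were called in both fits, and the median in sgHS1-5 1 alone was −1.60. The list summed to 1818, 2551 and 1931 CPM in sgHS1-5 against 6364, 4911 and 4838 CPM in sgGal4. Against the mean of sgHS2 and sgHBG 0 rose and 23 fell (median −1.30), and against WT 0 rose and 23 fell (median −2.10). Without sgGal4 1 23 fell (median −1.01). Not called against sgGal4 were VLDLR and the amino acid transporters SLC7A1 and SLC38A2, of which VLDLR and SLC7A1 are uneven.

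ASNS, asparagine synthetase, had 72.5, 88.8 and 68.4 CPM in sgHS1-5 against 1198, 814 and 786 CPM in sgGal4. No sgHS1-5 library came near the sgGal4 range, and the log2 difference was −3.61 ± 0.17 (12.2-fold lower, adjusted p = 4.4e-08), or −3.68 in sgHS1-5 1 alone. It averaged 518 CPM in sgHS2, 493 CPM in sgHBG and 1251 CPM in WT, so sgHS1-5 had the lowest mean of the 5 groups. ATF4 itself had 227, 377 and 236 CPM in sgHS1-5 against 1059, 520.1 and 526 CPM in sgGal4 (log2 −1.32 ± 0.26, adjusted p = 0.00184). DDIT3, the stress-induced factor CHOP, was 3.21-fold lower (adjusted p = 0.000566) and TRIB3, a pseudokinase induced by ATF4, 3.71-fold lower (adjusted p = 2.76e-06). CHAC1, a glutathione-degrading enzyme, had 1.46, 3.41 and 1.35 CPM in sgHS1-5 against 27.4, 20.4 and 19.0 CPM in sgGal4 and was 10.5-fold lower (adjusted p = 1.83e-06).

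Enzymes and carriers of amino acids followed. CTH, a transsulfuration enzyme, had 12.5, 14.6 and 11.2 CPM in sgHS1-5 against 58.4, 63.8 and 64.2 CPM in sgGal4 (log2 −2.28 ± 0.12, adjusted p = 1e-07). SLC6A9, a glycine transporter, had 3.56, 2.59 and 4.05 CPM in sgHS1-5 against 18.6, 28.0 and 27 CPM in sgGal4 (log2 −2.86 ± 0.19, adjusted p = 8.47e-07). SESN2, a leucine sensor, was 2.48-fold lower (adjusted p = 5.45e-06). PHGDH, which opens serine synthesis, had 43.2, 113 and 59.0 CPM in sgHS1-5 against 542, 355 and 346 CPM in sgGal4, and PSAT1, the next enzyme of that pathway, had 29.1, 114 and 45 CPM in sgHS1-5 against 175, 196 and 188 CPM in sgGal4. Both are uneven, with the highest sgHS1-5 level in sgHS1-5 2. Their log2 differences were −3.26 and −2.68 in sgHS1-5 1 alone, and −2.52 and −1.57 with all libraries (adjusted p = 4.36e-05 and 0.00322).

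Promoters of the ATF4 list were searched on both strands for TGATGNAA, letters of the composite element known to be bound by ATF4 with C/EBP proteins. Promoter sequences are from RefSeq (GRCh38.p14) and cover the 250 bases before the transcription start, printed 5′ to 3′ on the gene's strand. The pair shown are the members with a match whose levels fell furthest, with the match in capitals. ASNS lies at chr7:97872409-97872658 on the minus strand, with the match 68 bases before the start. CHAC1 lies at chr15:40953221-40953470 on the plus strand, with the match 209 bases before the start and on the opposite strand.
ASNS: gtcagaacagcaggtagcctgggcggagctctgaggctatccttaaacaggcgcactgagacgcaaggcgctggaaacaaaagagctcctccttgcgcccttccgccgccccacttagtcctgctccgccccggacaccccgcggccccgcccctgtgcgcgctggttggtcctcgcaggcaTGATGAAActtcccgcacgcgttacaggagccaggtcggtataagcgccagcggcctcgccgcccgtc
CHAC1: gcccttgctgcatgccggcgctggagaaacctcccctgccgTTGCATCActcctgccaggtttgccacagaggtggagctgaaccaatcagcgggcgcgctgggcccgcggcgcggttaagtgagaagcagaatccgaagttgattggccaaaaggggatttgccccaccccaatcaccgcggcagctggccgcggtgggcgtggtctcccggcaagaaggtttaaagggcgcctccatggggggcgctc
Of 21 list members with a promoter in that table, 4 held these letters (19.0%), namely ATF3, CHAC1, ASNS and CEBPG. All 4 were called lower, but so were 22 of the 25 genes of the list. Most members without the letters were also called lower, such as PHGDH and CTH. Of all 27305 genes there 3.89% held them. A match describes letters only, and binding was not measured.

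The chaperones of the ER, induced by the unfolded protein response, were also lower. Of 16 genes 0 rose and 14 fell (median log2 −1.06), 11 of them called in both fits, and all 16 were even. The list summed to 3789.7, 3678 and 3710.4 CPM in sgHS1-5 against 8781, 7103 and 7056 CPM in sgGal4. Set against the mean of sgHS2 and sgHBG, 0 rose and 9 fell (median −0.69), and against WT 0 rose and 14 fell (median −1.0). HSPA5, the central ER chaperone BiP, had 551, 493 and 518 CPM in sgHS1-5 against 2234, 1495 and 1503 CPM in sgGal4 (log2 −1.74 ± 0.14, adjusted p = 3.83e-06). It averaged 1148 CPM in sgHS2, 1046 CPM in sgHBG and 2040.4 CPM in WT. HERPUD1, which serves ER-associated degradation, had 26.5, 46.1 and 25.8 CPM in sgHS1-5 against 189.7, 173 and 165 CPM in sgGal4 and was 5.35-fold lower (adjusted p = 1.83e-06). HYOU1, a large ER chaperone, was 2.42-fold lower, DNAJB9, a cochaperone of BiP, 2.21-fold lower and XBP1, a transcription factor of this response, 1.77-fold lower (adjusted p = 7.04e-06, 4.39e-05 and 0.00298). CANX, a lectin chaperone, and EDEM1, a degradation factor, were not called (log2 −0.37 and −0.35, adjusted p = 0.0652 and 0.0585).

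The ER stress response element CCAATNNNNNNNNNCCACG was searched in the same way, and is shown in 2 chaperone promoters with matches in capitals. HSPA5 lies at chr9:125241344-125241593 on the minus strand, with a match 66 bases before the start. HSP90B1, the ER chaperone GRP94 (2.10-fold lower, adjusted p = 0.000617), lies at chr12:103930160-103930409 on the plus strand, with matches 194 and 89 bases before the start, the second on the opposite strand.
HSPA5: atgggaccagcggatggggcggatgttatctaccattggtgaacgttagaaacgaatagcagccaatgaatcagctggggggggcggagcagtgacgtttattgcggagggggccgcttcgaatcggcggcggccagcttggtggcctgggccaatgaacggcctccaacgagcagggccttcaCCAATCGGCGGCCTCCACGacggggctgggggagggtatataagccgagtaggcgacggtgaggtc
HSP90B1: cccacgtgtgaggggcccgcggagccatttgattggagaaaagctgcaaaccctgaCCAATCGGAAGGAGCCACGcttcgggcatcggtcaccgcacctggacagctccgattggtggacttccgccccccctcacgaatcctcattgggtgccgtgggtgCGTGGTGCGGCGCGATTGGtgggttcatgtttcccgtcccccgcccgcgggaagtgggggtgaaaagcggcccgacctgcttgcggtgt
Of the 16 members, all in the table, 6 held the element (37.5%), as did 25 of all 27305 genes (0.0916%). Of the 6, HSPA5, HSP90B1, PDIA6, XBP1 and CRELD2 were called lower and CANX was not called. Over the whole list 14 of 16 were called lower.

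**Figure D4:**
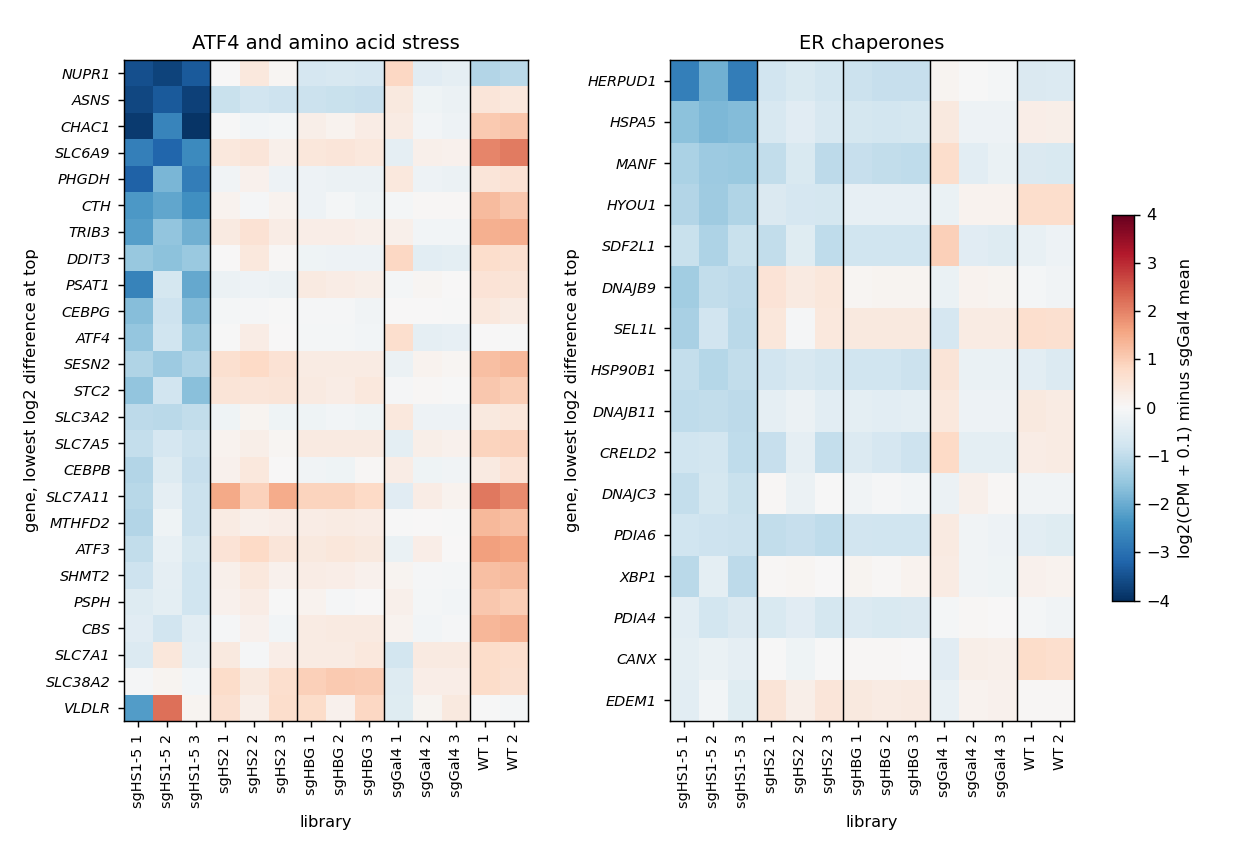
Members of the ATF4 and amino acid stress list (left) and the ER chaperone list (right) in every library, as log2(CPM + 0.1) minus the mean of the sgGal4 libraries, with blue for lower and red for higher. The 3 sgHS1-5 columns are blue for most genes, as for ASNS at 68.4 to 88.8 CPM against 786 to 1198 CPM in sgGal4, and VLDLR is red in sgHS1-5 2.

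Glycolysis and hypoxia genes were higher in sgHS1-5 than in sgGal4. These genes, many of them targets of the hypoxia-inducible factors, include the enzymes that turn glucose into lactate and the carriers that bring glucose in. Of 35 genes 27 rose and 2 fell (median log2 0.91), 23 and 2 of them called in both fits. Against the mean of sgHS2 and sgHBG 23 rose and 5 fell (median 0.47), and against WT 26 rose and 4 fell (median 0.90). The list summed to 15836, 15587 and 15869.9 CPM in sgHS1-5 against 10463, 8576 and 8492 CPM in sgGal4. Its sums were 13566, 15898 and 13320.3 CPM in sgHS2, where 1 library lay above all sgHS1-5 libraries, and 10284, 10145 and 10091 CPM in sgHBG. LDHA, the lactate dehydrogenase A subunit, had 1604, 1374 and 1512 CPM in sgHS1-5 against 389.8, 368 and 368 CPM in sgGal4 (log2 2.00 ± 0.09, adjusted p = 4.34e-08), and averaged 869.5 CPM in sgHS2, 471 CPM in sgHBG and 368 CPM in WT. HK2, a hexokinase, had 103, 146 and 117 CPM in sgHS1-5 against 25.9, 38.2 and 41.8 CPM in sgGal4 (log2 1.78 ± 0.18, adjusted p = 1.85e-05). GPI, glucose phosphate isomerase, was 2.42-fold higher, PGK1, phosphoglycerate kinase, 2.10-fold higher and GAPDH, glyceraldehyde phosphate dehydrogenase, 1.99-fold higher (adjusted p = 1.23e-06, 2.16e-06 and 6.71e-05). SLC2A1, the main glucose carrier, had 126, 93.2 and 113 CPM in sgHS1-5 against 29.6, 48.2 and 48.1 CPM in sgGal4 (log2 1.39 ± 0.17, adjusted p = 5.6e-05). EGLN3, the oxygen sensor PHD3, was 3.77-fold higher (adjusted p = 4.69e-05). VEGFA, an angiogenic factor, was 1.51-fold higher than in sgGal4 (adjusted p = 0.000791) but lower than the mean of sgHS2 and sgHBG (log2 −0.62, adjusted p = 0.000232) and than WT (log2 −1.19, adjusted p = 4.37e-06).

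The letters ACGTG, the core of the element known to be bound by hypoxia-inducible factors, were found on either strand in 20 of 31 members with a promoter in the table (64.5%) and in 21.7% of all 27305 genes. These letters are also part of the E-box CACGTG, which reads the same on both strands and counts as a match on each. Among members with the letters PFKM, PFKFB3, ALDOC and TPI1 were not called, DDIT4 fell (log2 −1.32) and the rest rose. Members without the letters also rose, except P4HA2, which fell (log2 −1.22). The LDHA promoter, at chr11:18394313-18394562 on the plus strand, is shown with its 5 matches in 3 stretches of capitals.
LDHA: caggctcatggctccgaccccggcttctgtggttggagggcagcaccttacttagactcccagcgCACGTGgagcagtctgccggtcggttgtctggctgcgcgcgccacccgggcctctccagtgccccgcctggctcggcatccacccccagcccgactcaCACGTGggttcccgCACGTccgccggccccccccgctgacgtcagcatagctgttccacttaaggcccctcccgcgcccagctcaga

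Cholesterol synthesis genes were lower than in sgGal4, with 0 of 25 higher and 22 lower (median log2 −1.13), and 18 of the falls called in both fits. CYP51A1, a sterol demethylase, had 117, 130.2 and 111 CPM in sgHS1-5 against 396, 417 and 413 CPM in sgGal4 (log2 −1.78 ± 0.09, adjusted p = 5.74e-08). INSIG1, which holds the sterol sensor in the ER, was 2.37-fold lower (adjusted p = 3.46e-07). When the mean of sgHS2 and sgHBG was the comparison, 0 rose and 9 fell (median −0.26), and against WT 2 rose and 9 fell (median −0.21). Of 12 fatty acid synthesis genes 1 rose and 8 fell against sgGal4 (median −0.67), ACSS2, an acetyl-CoA synthetase, being 2.64-fold lower (adjusted p = 3.48e-07).

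Cytosolic ribosomal protein genes fell in 41 of 49 cases and rose in 0 (median log2 −0.88). The list summed to 86039, 88617 and 84379.7 CPM in sgHS1-5 against 244712, 115745 and 115537 CPM in sgGal4, so sgGal4 1 stood above all other libraries of both groups. Without sgGal4 1, 33 fell (median −0.41), and in sgHS1-5 1 alone 3 fell (median −0.86). Against the mean of sgHS2 and sgHBG 3 fell and against WT 1 fell, with medians of −0.15 and 0.02.

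Replication genes were more often higher, with 13 of 28 higher and 2 lower (median log2 0.36). Against the mean of sgHS2 and sgHBG 27 rose and 0 fell (median 0.67), while against WT 1 rose and 9 fell (median −0.25). MCM4, a subunit of the replicative helicase, had 344, 379.9 and 336 CPM in sgHS1-5 against 152, 199 and 195 CPM in sgGal4 (log2 0.96 ± 0.11, adjusted p = 4.65e-05). Of 25 mitosis genes 8 rose and 2 fell (median 0.10). MYC, a driver of growth, had 294, 489 and 329 CPM in sgHS1-5 against 131, 189 and 188 CPM in sgGal4 (log2 1.13 ± 0.18, adjusted p = 0.000434; 0.80 in sgHS1-5 1 alone). Among targets of BCR-ABL and STAT5 signalling, the oncogenic pathway of this line, 0 of 16 rose and 5 fell (median −0.10), 4 of them called in both fits. SOCS2, a feedback inhibitor of cytokine signalling, had 86.4, 58.3 and 77.0 CPM in sgHS1-5 against 169, 154 and 155 CPM in sgGal4 (log2 −1.11 ± 0.12, adjusted p = 2.9e-05), and PIM1, a survival kinase, was 1.97-fold lower (adjusted p = 8.98e-05).

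Interferon response genes were more often higher than in sgGal4, with 15 of 27 higher and 5 lower (median log2 0.96). Of the rises 7 were uneven and 9 were called in both fits, and the part of the other blood cells' transcripts in them was not tested beyond that. Relative to the mean of sgHS2 and sgHBG 1 rose and 12 fell (median −0.48). IFIH1, a sensor of viral RNA, had 19.6, 26.9 and 20.3 CPM in sgHS1-5 against 4.39, 6 and 6.51 CPM in sgGal4 (log2 1.96 ± 0.16, adjusted p = 2.89e-06), and averaged 39.8 CPM in sgHS2.

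Heat shock genes fell in 8 of 16 cases and rose in 0 against sgGal4 (median log2 −0.46), and 1 was called in both fits. The list summed to 9568, 8421 and 9047 CPM in sgHS1-5 against 12796, 8877 and 8754 CPM in sgGal4, with sgGal4 1 the highest. Without sgGal4 1, 2 rose and 8 fell (median −0.20). Against WT 13 rose and 0 fell (median 1.18). HSPA8, the constitutive cytosolic chaperone, had 2325, 2076 and 2199 CPM in sgHS1-5 against 2345, 2026 and 2026 CPM in sgGal4, and a mean of 472 CPM in WT. Cancer-testis antigen genes rose in 6 of 16 cases and fell in 0 against sgGal4 (median 0.37). They rose in 0 and fell in 12 against the mean of sgHS2 and sgHBG (median −0.81).

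**Figure D5:**
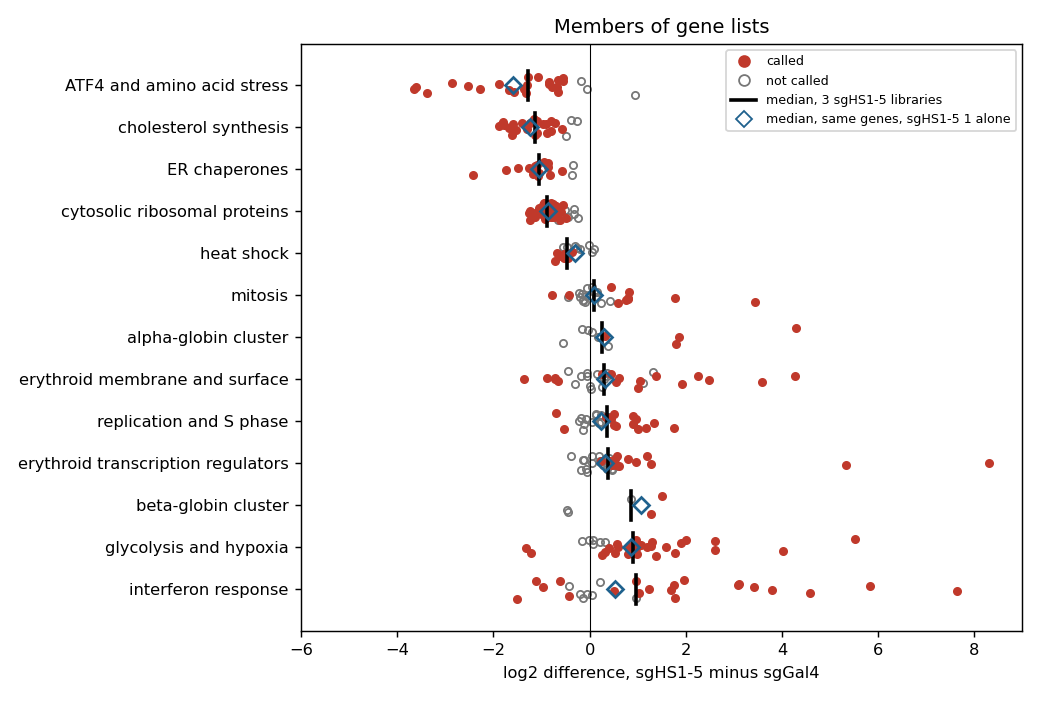
Log2 differences between sgHS1-5 and sgGal4 of the tested members of 13 gene lists, as filled points where called and open points where not, with the median over all 3 sgHS1-5 libraries (bar) and over the same genes in sgHS1-5 1 alone (diamond). Of these lists the ATF4 list has the lowest median (−1.28) and the glycolysis and interferon lists the highest (0.91 and 0.96), and the interferon median is lower in sgHS1-5 1 alone.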

How the data were processed

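RNA-seq of K562 cells was made with the TruSeq RNA Sample Preparation v2 kit on a NextSeq500, per the labels' protocols. The submitters' processing notes name TopHat, Cufflinks, DESeq and the build hg19, whose versions and roles are not given in the sources used here. The authors deposited a table of whole-number read counts for 24729 genes and a table of RPKM values for 25268 genes, 539 of them in that table only. How RPKM was scaled beyond its unit is not given in the sources used here.

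Counts were scaled by TMM and fitted with edgeR 4.0.16 (R 4.3.3, limma 3.58.1), with 1 mean per group over all 14 libraries, which share 1 estimate of the spread (9 residual degrees of freedom, common dispersion 0.0323). The filter on low counts (minimum count 10, total 15) left 14406 genes. Libraries held 5694448 to 11335831 reads. The alternatives tried were RLE scaling, no filter, 1 CPM in 3 libraries, library sizes without globin genes, DESeq2 1.42.0, limma voom, RPKM on the scale log2(value + 1) or log2(value + 0.1), a 2-fold minimum, only the compared groups, the replicate block and each library left out. Replicate numbers did not pair the libraries.

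The text names the 12 highest and 12 lowest genes that were called in both fits, did not overlap and averaged at least 1 CPM, all globin cluster genes, and genes of the lists, up to 4 of each by lowest p among those called in both fits. Further genes were named for their role after their values were seen. The gene lists and the groups compared were chosen with earlier results of these data known. The division into even and uneven genes, the fit without sgGal4 1 beside sgHS1-5 1 alone, and the globin ratios were chosen after seeing the data. On simulated counts for sgHS1-5 against sgGal4 (14406 genes, 50 changed per size), the test recovered 18% of 1.5-fold, 54% of 2-fold, 88% of 4-fold and 96% of 8-fold changes, and 4.48% of calls were false. The simulated counts held no transcripts of other blood cells and no library that stood apart as sgGal4 1 did. Far fewer genes were changed in them than were called in the data, so these rates may not hold for the real calls. Promoters came from RefSeq (GRCh38.p14) and were matched by symbol. Some genes that the naming rule selects are not reported here.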

Additional observations from a re-analysis of the deposited data

Results flagged for a closer look

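In 7 tested genes of the globin clusters the difference between sgHS1-5 and the mean of sgHS2 and sgHBG, which carry the same FB-dCas9-BirA, was called by edgeR's test over all genes. Only globin cluster genes were looked at for this. HBZ had a log2 difference of 3.78 ± 0.17 (adjusted p = 4.66e-08), HBA2 of 3.33 ± 0.55 (adjusted p = 0.000522) and HBA1 of 2.98 ± 0.42 (adjusted p = 0.000161). LUC7L had 0.76 (adjusted p = 0.0281) and NPRL3 0.27 (adjusted p = 0.0394). HBE1 was lower, at −0.79 (adjusted p = 0.0229), and so was HBD, at −1.06 (adjusted p = 0.00161). The calls of HBE1 and HBD rest on the fit with all 3 sgHS1-5 libraries and not on sgHS1-5 1 alone. Nor were all the calls in the α-globin cluster made in sgHS1-5 1 alone. In this comparison the median over the β-globin cluster was −0.44 with all libraries and −0.54 in sgHS1-5 1 alone. The medians of the α-globin cluster were 0.71 and 0.75.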

How the results depend on the processing

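Of 166 named genes 133 kept their direction and side of the threshold under every alternative run, and of 3068 values 2976 did, 57 lost and 15 gained a call and 20 turned direction. The 5823 genes called against sgGal4 became 2203 with only the compared groups in the fit, 2475 in sgHS1-5 1 alone (4711 with sgGal4 1 also left out) and 2433 with a 2-fold minimum, and lay between 4421 and 6618 with 1 library left out. The 5393 called against the mean of sgHS2 and sgHBG numbered 2121 in sgHS1-5 1 alone and 6522 with only the compared groups in the fit, and the 6182 called against WT numbered 3834 and 6641 under these settings. The cause was not tested. Of 605 medians of lists 84 moved. Depth limits the weak genes most, since 3 reads were 0.405 to 0.486 CPM in sgHS1-5.

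No gene whose direction turned was called with all libraries. HBE1 stood at 0.27 in sgHS1-5 1 alone with sgGal4 1 also left out, and from −0.64 to 0.07 with 1 library left out. Under the first of these settings HBD stood at 0.03, HBQ1 at 0.99 (adjusted p = 0.02), MPG at 0.15, RHBDF1 at −0.05 and POLR3K at 0.29. HBQ1 also stood at 0.08 with the replicate block, 0.21 in sgHS1-5 1 alone, 0.24 with limma voom and 0.06, 0.07 and 0.06 with RPKM, and RHBDF1 at −0.04 in sgHS1-5 1 alone. With 1 library left out HBQ1 ranged from −0.34 to 0.76 (adjusted p = 0.0284 without sgGal4 1), RHBDF1 from −0.04 to 0.09, POLR3K from −0.35 to 0.25 and SNRNP25 from −0.06 to 0.79. The cause was not tested.

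Same-numbered libraries of the 2 groups shared only a number, their deviations correlating at 0.03, 0.03 and −0.018. With the replicate block 5380 genes were called against sgGal4, 5023 against the mean of sgHS2 and sgHBG and 5678 against WT. Under it HBG1 gained a call (log2 0.92, adjusted p = 0.0481).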
